A study of Mus musculus with 8 samples.

Results

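The genes described here encode the interleukin-1 ligands and the inflammasome, the protein assembly that activates them. The members are Il1a, Il1b, Il1rn, Il18, Casp1, Casp4, Nlrp3, Pycard, Nlrc4 and Aim2, chosen by name, and every probe set whose annotation gave 1 of these symbols alone was taken. Of the 10 genes, 9 had a probe set, 13 probe sets in all, out of 18193 named genes with 34945 probe sets. Nlrc4, the sensor of bacterial flagellin and secretion needles, was not analysed here.

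The series measured transcripts in spleen cells of 4 mice with MLL-AF10 acute myeloid leukaemia. MLL-AF10 is a fusion of the histone methyltransferase gene MLL with AF10. The labels state that c-kit+ bone marrow stem and progenitor cells had been transduced with retrovirus and immortalized, and that they were then transplanted into syngeneic recipients after sub-lethal irradiation. The recipients' strain is given as CD57BL/6, the sources used here do not give their age, and host cells of the spleen were not removed by any step the labels name. All groups thus share the fusion, the transplantation and the irradiation. Cells of each spleen were sorted by flow cytometry for c-kit, also called CD117. The fraction CD117pos holds the c-kit-high cells and CD117neg those without c-kit. Each of the 4 mice, called _948, _951, _952 and _953 after the endings of the array titles, gave 1 array per fraction, 8 arrays in all. The comparison asks which transcripts distinguish the c-kit-high cells, among which leukaemia-initiating cells of such models are known to be enriched, from the c-kit-negative cells.

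Interleukin-1 beta and interleukin-18 are made as inactive precursors without a classical secretion signal. Sensor proteins such as NLRP3, NLRC4 and AIM2 detect microbial or damage signals and, through the adaptor ASC (encoded by Pycard), recruit caspase-1, which cleaves both precursors. Caspase-11, encoded by mouse Casp4, binds intracellular lipopolysaccharide and triggers pore formation by gasdermin D. Interleukin-1 alpha acts on the same receptor as interleukin-1 beta without needing this cleavage, and the receptor antagonist encoded by Il1rn blocks both. In myeloid cells, transcription of Il1b is known to be low at rest and to rise after signals through Toll-like receptors, while Pycard and Casp1 are known to be expressed constitutively.

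Kit, the sorted receptor's gene, had intensities of 15.7 to 39.2 in the CD117neg and 599 to 909 in the CD117pos arrays and, as the sorted marker, is no finding. Over all named genes, 1521 were higher and 2518 lower in CD117pos cells (limma, adjusted p under 0.05), so that 37.7% of calls were higher, a share that became 55.6% after quantile normalization (2437 and 1943) and 48.4% after centring (1958 and 2084). The CD117pos array of mouse _951 stood apart, with correlations of log2 intensities of 0.929 to 0.931 with the other CD117pos arrays, each of which reached at least 0.988 with another of them.

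Of the 9 measured members, 4 were lower in CD117pos cells and 0 were higher (limma, Benjamini-Hochberg adjusted p under 0.05 over all named genes). The ligand gene Il1b, its antagonist gene Il1rn and both inflammatory caspase genes Casp1 and Casp4 fell, while the adaptor gene Pycard, the sensor genes Nlrp3 and Aim2 and the ligand genes Il1a and Il18 did not pass. At an unadjusted p under 0.05 (limma) the counts were 5 lower and 0 higher, against 3709 lower and 2599 higher among all 18193 named genes. At the adjusted threshold 13.8% of all named genes were called lower and 8.36% higher. Among genes with a mean intensity of at least 100 the share called lower was 23.8%. The median log2 difference of the 9 members was -0.53, against -0.01 over all named genes. In each of the 4 called genes all CD117neg arrays lay above all CD117pos arrays, an arrangement found in 17.2% of named genes. The reverse arrangement was found in 0 members and in 10.4% of named genes. Values below are intensities on a linear scale, differences are CD117pos minus CD117neg of log2(intensity + 16) ± SE, which understates changes of dim genes, and means are ± SD over 4 arrays. In these bulk fractions, fewer cells of a type and less RNA per cell cannot be told apart. With the block left out and mouse _951 represented by CD117neg cells alone, 4 members were lower, with differences of -3.91 for Il1b, -2.64 for Il1rn, -1.16 for Casp1 and -1.47 for Casp4.

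Promoter sequences from RefSeq (mouse build GRCm38.p6), matched by gene symbol for all 10 members, are shown for 2 pairs of genes whose members lie close together on a chromosome. Il1b and Il1a are on chromosome 2 with 2 listed genes between them and differed in their readout: Il1b was bright in CD117neg cells and Il1a was dim in every array. Casp1 and Casp4 are direct neighbours on chromosome 9, with 0 listed genes between them, and both fell. Each line gives the 250 bases before the first listed start site, 5′ to 3′, in lower case, with matches to the searched motifs in capitals.
Il1b, chr2:129371140-129371389, minus strand: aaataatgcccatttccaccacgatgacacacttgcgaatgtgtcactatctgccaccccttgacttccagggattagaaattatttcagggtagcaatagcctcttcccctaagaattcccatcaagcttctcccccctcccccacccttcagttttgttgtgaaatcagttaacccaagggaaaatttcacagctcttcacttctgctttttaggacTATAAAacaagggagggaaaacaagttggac
Il1a, chr2:129309973-129310222, minus strand: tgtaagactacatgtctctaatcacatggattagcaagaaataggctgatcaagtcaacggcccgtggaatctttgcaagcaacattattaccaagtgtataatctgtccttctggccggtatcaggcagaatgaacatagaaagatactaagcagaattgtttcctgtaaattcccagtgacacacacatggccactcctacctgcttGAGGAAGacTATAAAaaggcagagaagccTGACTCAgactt
Casp1, chr9:5298267-5298516, plus strand: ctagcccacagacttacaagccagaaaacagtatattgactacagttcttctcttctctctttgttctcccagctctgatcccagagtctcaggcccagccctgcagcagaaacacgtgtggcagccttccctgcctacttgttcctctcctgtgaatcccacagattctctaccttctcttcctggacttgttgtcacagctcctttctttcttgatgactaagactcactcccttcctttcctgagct
Casp4, chr9:5308599-5308848, plus strand: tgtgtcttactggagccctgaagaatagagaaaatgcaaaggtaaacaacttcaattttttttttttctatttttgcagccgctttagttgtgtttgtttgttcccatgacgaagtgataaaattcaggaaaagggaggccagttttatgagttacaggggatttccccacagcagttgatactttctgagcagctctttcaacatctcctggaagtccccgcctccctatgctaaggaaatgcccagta
The capitals in both ligand promoters include TATAAA, which began 31 bases before the start of Il1b and 32 bases before that of Il1a. The Il1a window also held GAGGAAG, a core of sites for the myeloid factor PU.1, and TGACTCA, a match to the AP-1 motif TGANTCA. The Casp1 and Casp4 windows held no exact match to any of the 6 motifs searched. On both strands, TATAAA was found in 12.4% of 32851 windows of this length, GAGGAAG in 10.6%, TGANTCA in 6.75%, the C/EBP core TTGCNNAA in 9.56%, the NF-kappaB motif (GGGA and TTCC with any pair of bases between) in 1.21% and the interferon response motif (GAAA and again GAAA with any pair of bases between) in 2.98%. GAGGAAG occurred in windows of 4 member genes (Aim2, Il1a, Nlrp3 and Pycard), TGANTCA in 2 (Il1a and Il1rn) and the C/EBP core in 2 (Nlrc4 and Pycard). TATAAA occurred in windows of 3 (Il18, Il1a and Il1b), and the NF-kappaB and interferon response motifs in windows of 0. Whether any motif goes with a difference between fractions was not tested. Only the exact patterns were counted, so near variants were missed. An example is gggatttccc in the Casp4 window, a near variant of the NF-kappaB motif. Near variants were not counted in the other windows, so this example does not set Casp4 apart from other genes. A match describes letters only.

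The ligand gene Il1b had the largest difference among the members. Its single probe set (Entrez gene 16176) measured 272, 1432, 759 and 575 in the CD117neg arrays of mice _948, _951, _952 and _953. In the CD117pos arrays of the same mice it measured 20.3, 29.6, 31.2 and 33.2. The CD117neg values thus spread widely between mice, whereas all CD117pos values lay near the array medians of 27.5 to 32.8, 2 of them below their own array's median. The mean went from 759 ± 491 to 28.6 ± 5.70, and the log2 difference was -3.90 ± 0.32 (limma, adjusted p = 0.00174). Within mice the difference ran from -2.99 in mouse _948 to -4.99 in mouse _951. With CD117pos values so near the array medians, the fold depends on the pseudocount: the log2 difference corresponds to 14.9-fold with the pseudocount of 16, 22.1-fold with 1 and 7.75-fold with 64, while the ratio of mean intensities is 26.6. The call held with both other pseudocounts (adjusted p = 0.00553 for each). The mouse terms of the fit did not pass for Il1b (moderated F-test, adjusted p = 0.681).

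Il1a, the gene of the alpha ligand (Entrez gene 16175), was dim throughout. Its intensities were 1.15, 2.80, 3.83 and 5.66 in the CD117neg arrays and 4.93, 27.6, 8.19 and 1.99 in the CD117pos arrays, in the same order of mice. All 8 values lay below the median of their array. The groups overlapped, and the highest value came from the CD117pos array of mouse _951. The log2 difference was 0.38 ± 0.25 (limma, adjusted p = 0.342), with a 95% interval from -0.23 to 0.99, so no difference was detectable at this signal.

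Il1rn, the gene of the interleukin-1 receptor antagonist (Entrez gene 16181), fell in its bright probe sets. The brightest measured 2132, 2621, 1660 and 2115 in the CD117neg arrays and 394, 181, 175 and 488 in the CD117pos arrays. All CD117pos values lay far below all CD117neg values but stayed well above the array medians. The log2 difference was -2.84 ± 0.29, a 7.14-fold change (limma, adjusted p = 0.00293). A second probe set went from 775 ± 168 to 123 ± 57.2, with a difference of -2.59 ± 0.17 in the fit over all probe sets (limma, adjusted p = 0.00112). The third was below its array's median in 7 of 8 arrays, went from 24.7 ± 9.27 to 11.5 ± 5.97 and did not pass (difference -0.56 ± 0.20, adjusted p = 0.121). With the mean of all 3 probe sets the gene's difference was -1.996, still past the threshold (adjusted p = 0.000806).

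The shifts of Il1b and Il1rn were set side by side within mice. The log2 difference of Il1b minus that of Il1rn was -0.60 in mouse _948, -1.25 in _951, -0.90 in _952 and -1.51 in _953, with a mean of -1.06 ± 0.40 (SD, n = 4). That gap depends on the pseudocount, since Il1b was dim in CD117pos cells. With a pseudocount of 64, chosen for this comparison after seeing the data, the mean was -0.32 ± 0.44 and mouse _948 turned to 0.27, while with 1 the mean was -1.56 ± 0.33. Which of these genes fell further was thus not settled.

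**Figure D1:**
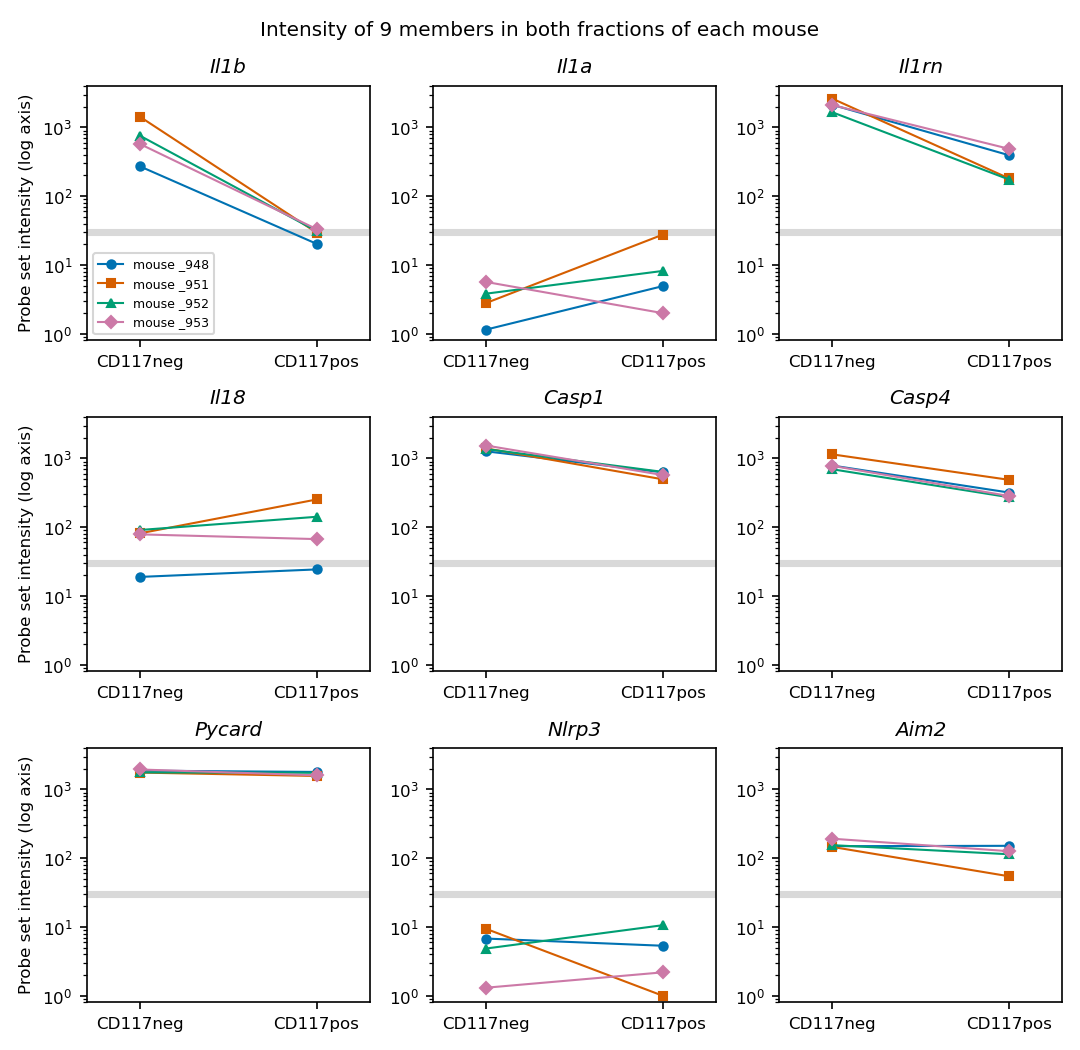
Probe set intensity (log axis) of the 9 measured members in the CD117neg and CD117pos fraction of each mouse, 1 line per mouse, with the range of array medians (27.5 to 32.8) as a grey band. Il1b, Il1rn, Casp1 and Casp4 fall in all 4 mice, Pycard stays between 1569 and 1948, and every Il1a and Nlrp3 value lies below the median of its own array.

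Il18, the gene of the other ligand cleaved by caspase-1 (Entrez gene 16173), did not pass the test. It measured 18.9, 81.4, 91.0 and 78.7 in the CD117neg arrays and 24.3, 253, 142 and 67.1 in the CD117pos arrays. Mouse _948 was lowest in both fractions, and the highest value was the CD117pos array of mouse _951. The log2 difference was 0.51 ± 0.28, higher in 3 of 4 mice (limma, adjusted p = 0.258), with a 95% interval from -0.17 to 1.19. Without mouse _951 it was 0.19. The mouse terms did not pass (adjusted p = 0.509).

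Both inflammatory caspase genes fell by similar amounts. Casp1 (Entrez gene 12362) measured 1268, 1398, 1367 and 1540 in the CD117neg arrays and 627, 497, 637 and 573 in the CD117pos arrays. Neither fraction varied much between mice, and the gene stayed bright in CD117pos cells. Its log2 difference was -1.24 ± 0.13, a 2.35-fold change (limma, adjusted p = 0.00341). Casp4 (Entrez gene 12363) measured 788, 1145, 695 and 780 in the CD117neg arrays and 319, 488, 273 and 284 in the CD117pos arrays. Mouse _951 had the highest Casp4 value in both fractions, so that its difference of -1.20 was close to those of the other mice, -1.41 to -1.26. The log2 difference was -1.29 ± 0.11, a 2.45-fold change (limma, adjusted p = 0.0018).

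The shifts of these 2 caspase genes and of Il1b and Il1rn were compared in 6 pairs by exact two-sided sign-flip permutation over the 4 mice, which cannot give a p below 0.125. Casp1 and Casp4 differed by 0.06 ± 0.24 (SD, n = 4; exact permutation p = 0.625). The other 5 pairs each reached 0.125 (0.15 after Benjamini-Hochberg adjustment), with the same sign in all 4 mice. The difference of Il1b was more negative than that of Casp1 (by -2.66 ± 0.71) and Casp4 (by -2.61 ± 0.89), and so was that of Il1rn (by -1.60 ± 0.72 and -1.54 ± 0.82). With pseudocounts of 1 and 64 these 4 gaps kept their sign in all 4 mice, from -3.21 to -1.45 on average, and each reached 0.125 again (exact sign-flip permutation). These 4 genes were chosen for the comparison after their values were seen.

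**Figure D2:**
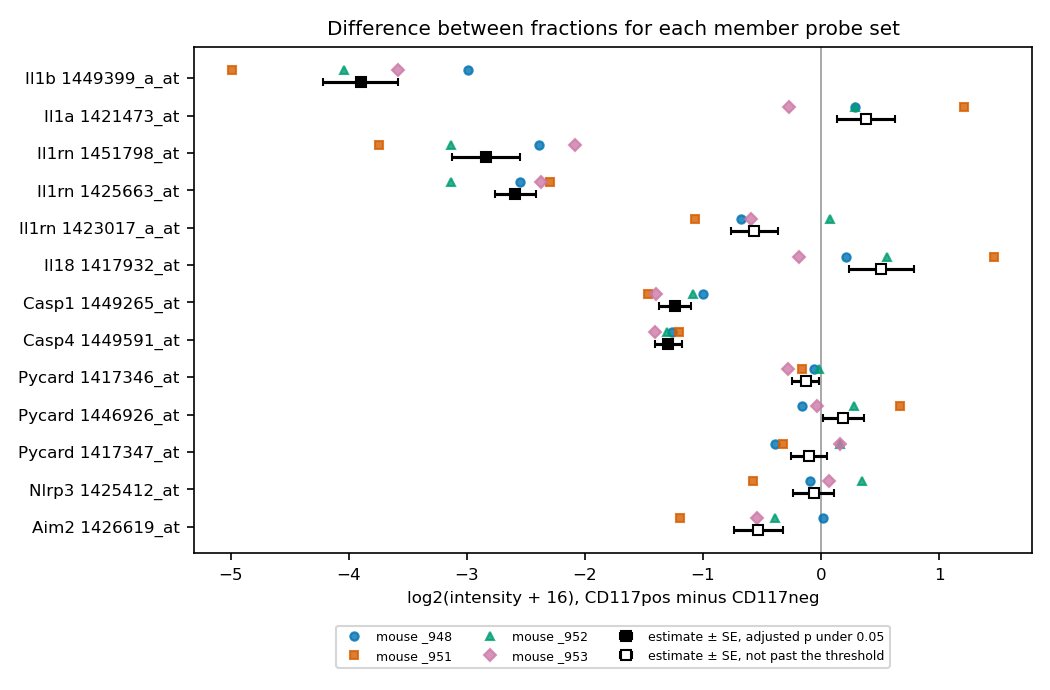
Difference of log2(intensity + 16), CD117pos minus CD117neg, for each of the 13 member probe sets, with the value in each mouse (coloured points) and the limma estimate ± SE (squares, filled where the adjusted p over all probe sets was under 0.05). The 5 filled squares belong to Il1b, 2 probe sets of Il1rn, Casp1 and Casp4.

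Of the 13 probe sets, 5 were lower and 0 higher in the fit over all 45037 probe sets, where 10.9% were called lower and 5.6% higher. The other 8 probe sets had adjusted p between 0.121 and 0.859.

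Pycard, which encodes the adaptor ASC (Entrez gene 66824), was bright and nearly level. Its bright probe set measured 1873, 1757, 1767 and 1948 in the CD117neg arrays and 1795, 1569, 1745 and 1602 in the CD117pos arrays. The ranges overlapped. The log2 difference was -0.13 ± 0.11 (limma, adjusted p = 0.479), with a 95% interval from -0.41 to 0.15, and it turned to 0.080 after quantile normalization. The interval leaves out a fall of the size seen for Casp1. The other 2 Pycard probe sets were below the array median in all 8 arrays and did not pass.

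Neither measured sensor gene passed. Nlrp3 (Entrez gene 216799) lay below the array median in all 8 arrays, with 6.78, 9.39, 4.86 and 1.31 in the CD117neg and 5.33, 1, 10.6 and 2.19 in the CD117pos arrays. Its single probe set thus gave no usable level, and the difference of -0.06 ± 0.18 (limma, adjusted p = 0.841) has no interpretable direction. It became 0.030 after centring on array medians. Aim2, the sensor of cytosolic DNA (Entrez gene 383619), measured 149, 146, 155 and 192 in the CD117neg arrays and 151, 54.6, 114 and 126 in the CD117pos arrays. The ranges overlapped through mouse _948, in which both fractions were alike. The difference was -0.53 ± 0.21 (limma, adjusted p = 0.138), with a value of -1.20 in mouse _951 and -0.55 to 0.02 in the other mice. Without mouse _951 it was -0.31.

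Genes that act around the members were read from 7 lists holding 81 genes, of which 71 were measured. Of these, 34 were lower, 3 were higher and 34 did not pass, with a median difference of -0.54. Among all named genes the shares called were 13.8% lower and 8.36% higher, with 23.8% lower among those with a mean intensity of at least 100. Leaving out mouse _951 gave 37 lower and 7 higher. Leaving out mouse _948, _952 or _953 gave 23, 24 and 23 lower, with 2 higher each time.

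**Figure D3:**
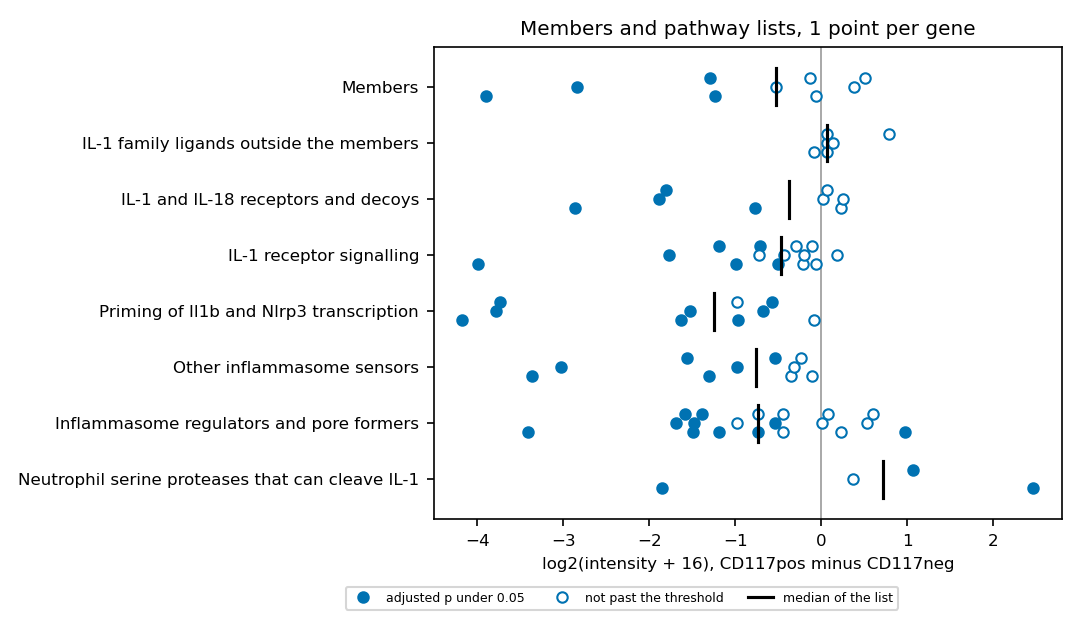
Difference of log2(intensity + 16), CD117pos minus CD117neg, for the 9 members and for each measured gene of the 7 pathway lists, 1 point per gene, filled where the limma adjusted p over all named genes was under 0.05, with list medians as black bars. The medians run from -1.25 for the list on priming, which also holds genes that restrain NF-kappaB, to 0.72 for the neutrophil proteases.

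Among other ligand genes of the interleukin-1 family, 0 of 6 passed in either direction, also at an unadjusted p under 0.05 (limma). Most were dim: Il1f8 lay below the array median in all 8 arrays, Il33 in 6 and Il1f6 in 5, and Il1f10 measured 31.2 to 58.2. A change in these dim genes could thus have been missed. They were named after their values were seen. The gene with the largest difference was Il1f5, an older symbol of the interleukin-36 receptor antagonist gene, at 0.79 ± 0.58 (adjusted p = 0.403). Its CD117pos array of mouse _951 measured 354 against 32.7 to 56.2 in the other CD117pos arrays. Il1f9, the interleukin-36 gamma gene, was also high in that array and became a fall without mouse _951 (difference -0.63, adjusted p = 0.0158, against -0.09 with all mice). It was singled out after its values were seen.

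Of 8 measured receptors and decoys, 4 were lower and 0 higher, with 0 higher at an unadjusted p under 0.05 as well. Il1r2, the decoy receptor that binds interleukin-1 without signalling, went from 1290 ± 322 to 187 ± 120, a difference of -2.87 ± 0.32 (limma, adjusted p = 0.00378). The 2 chains of the interleukin-18 receptor also fell. Il18r1 differed by -1.89 ± 0.21 and Il18rap by -1.81 ± 0.35. The CD117pos values of Il18r1, 5.01 to 16.1, all lay below the array medians, so the size of its difference depends on the pseudocount. With 16 it corresponds to 3.70-fold, against a ratio of mean intensities of 7.83. The Il18rap call ended without mouse _948 (adjusted p = 0.0625), _952 (0.0531) or _953 (0.0737). Without any 1 of these mice, 2 receptor genes in place of 4 were lower. The signalling receptor gene Il1r1 was dim, at 9.53 ± 10.5 and 9.69 ± 4.88, and its accessory chain gene Il1rap measured 221 ± 64.9 and 260 ± 63.3 (difference 0.23, 95% interval -0.15 to 0.61). Il1r1 and Il1rap were named after their values were seen. Without mouse _951, Il1rl2, the interleukin-36 receptor gene, was called higher (difference 0.56, adjusted p = 0.0283), and it too was named after its values were seen.

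Of 14 measured genes of signalling below the receptor, 6 were lower and 0 higher (0 also at an unadjusted p under 0.05). Nfkbiz, which encodes a nuclear cofactor of NF-kappaB induced by interleukin-1 and Toll-like receptors, went from 960 ± 153 to 54.8 ± 49.5, a difference of -3.99 ± 0.31 (limma, adjusted p = 0.00151). The adaptor gene Myd88 went from 1833 ± 291 to 580 ± 249 and the kinase gene Irak2 from 199 ± 35.0 to 77.7 ± 13.3. The Myd88 call (difference -1.77 ± 0.39, adjusted p = 0.0274) ended with a pseudocount of 1 (adjusted p = 0.0559) and without mouse _948 (0.0861), _952 (0.0653) or _953 (0.0931). Without any 1 of those mice, 3 genes of this list were lower.

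A list on the priming of Il1b and Nlrp3 transcription holds Toll-like receptors, transcription factors and also Nfkbia and Tnfaip3, which restrain NF-kappaB. Of its 10 measured genes, 8 were lower and 0 higher (9 and 0 at an unadjusted p under 0.05), with a median of -1.25. Both restraining genes were among the 8, with differences of -0.57 ± 0.11 for Nfkbia and -1.52 ± 0.21 for Tnfaip3, and both were named after their values were seen. Cd14, a co-receptor for lipopolysaccharide, went from 2794 ± 328 to 190 ± 131, a difference of -4.18 ± 0.60 (limma, adjusted p = 0.00752). The lipopeptide receptor gene Tlr2 differed by -3.79 ± 0.35 and Irf8, a transcription factor gene of monocytes and dendritic cells, by -3.74 ± 0.36. Without mouse _948, 5 genes of this list were lower. Cd14 also stands among the monocyte markers below.

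Of 10 measured genes of other sensors, 6 were lower and 0 higher (7 and 0 at an unadjusted p under 0.05). Ifi204, a gene of the DNA-binding family that includes AIM2, differed by -3.37 ± 0.37, and Nod1, a sensor gene for bacterial peptidoglycan, by -3.03 ± 0.22 (limma, adjusted p = 0.00128). Naip5, which encodes the flagellin receptor that works with NLRC4, went from 1641 ± 239 to 559 ± 148, a difference of -1.56 ± 0.13. Naip2 and Naip6, of the same family and named after their values were seen, differed by -0.98 and -1.31. The Naip2 call (adjusted p = 0.0259) ended with a pseudocount of 1 (0.0565), with no block (0.0545) and without mouse _948 (0.0824), _952 (0.0655) or _953 (0.0985). Without any 1 of those mice, 4 genes of this list were lower in place of 6. The 3 Naip genes are close relatives, and Naip2 and Naip5 were measured by probe sets marked as shared with other transcripts, so that both are uncertain.

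Of 19 measured regulators and pore formers, 9 were lower and 1 higher. P2rx7, the ATP-gated channel gene whose product triggers NLRP3, went from 658 ± 141 to 50.5 ± 31.0, a difference of -3.42 ± 0.21 (limma, adjusted p = 0.000691). Txnip differed by -1.69 ± 0.25 and Gbp2, a guanylate-binding protein gene, by -1.58 ± 0.18. The Gbp2 probe set is marked as shared with other transcripts and its ranges overlapped between fractions, so that the Gbp2 value is uncertain. The 1 gene that rose was Gbp3, from 770 ± 257 to 1528 ± 506, a value that is uncertain because its probe set is marked as shared with other transcripts and the family has close relatives. Leaving out all such probe sets left 0 genes of this list higher and 6 lower (limma). Without mouse _951, 3 genes of this list rose. Gsdme was 1 of these (difference 0.87, limma adjusted p = 0.0193), against 0.53 with all mice, where it did not pass. With the mean of all its probe sets Gsdme was instead called lower (difference -0.96, adjusted p = 0.0332), so that its direction depends on the probe set. Gsdmd, the gasdermin D gene, went from 1686 ± 43.1 to 1124 ± 495 and did not pass (difference -0.74 ± 0.33, adjusted p = 0.176). Gbp3, Gsdme and Gsdmd were named after their values were seen.

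The serine proteases of neutrophil granules can also cleave interleukin-1 precursors, and 2 of their genes rose in CD117pos cells. Elane, the neutrophil elastase gene, rose from 1010 ± 411 to 5416 ± 773, a difference of 2.47 ± 0.17 (limma, adjusted p = 0.00117). Ctsg, the cathepsin G gene, rose by 1.06 ± 0.20, a call that ended without mouse _948 (adjusted p = 0.0741), _952 (0.0598) or _953 (0.0869). Without any 1 of those mice, 1 gene of this list rose in place of 2. Ctsc, whose product activates these proteases, fell from 5184 ± 940 to 1422 ± 276. Of the 4 genes listed, 2 thus rose and 1 fell.

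The genes whose pattern over the 8 arrays was most like that of Il1b or Casp1 were sought among 8529 other genes with a mean intensity of at least 100. For Il1b they were Tmem45a2, Hp, AI504432, 1810013L24Rik and Crebbp, with Pearson correlations of log2(intensity + 16) between 0.991 and 0.995. For Casp1 they were Cdk9, Phlda1, Dusp1, Wipf1 and Nrbf2, between 0.995 and 0.999. The arrays fall into 2 fractions, which the correlations share: 883 genes reached 0.9 with Il1b and 1364 with Casp1. The sizes of the shifts differed among them, from -0.26 for Hp (which did not pass the test) to -3.72 for AI504432 in the case of Il1b.

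Most monocyte or macrophage markers and most neutrophil markers were lower in CD117pos cells, by uneven amounts. Of 8 measured monocyte or macrophage markers, 6 were lower, and their summed intensity was 21901 to 27291 in the CD117neg and 2065 to 6637 in the CD117pos arrays (3608 to 6637 without mouse _951). Adgre1 and Fcgr1 did not pass, Fcgr1 at 24.7 and 23.3 on average. Of 7 measured neutrophil markers 6 were lower, with sums of 51117 to 56091 and 13532 to 30957 (24420 to 30957 without mouse _951). Their differences ran from -6.06 for Mmp8 to -0.57 for Ngp. Ngp, S100a8 and Camp, which did not pass, stayed bright in CD117pos cells, at 7257, 6297 and 6067 on average. The part of both marker lists in the differences of Il1b, Il1rn, Casp1 and Casp4 was not tested. Markers of resident macrophages were mixed in level: C1qa and C1qc were below 20 in all 8 arrays, while C1qb measured 36.6 to 64.3, Cd5l 49.6 to 93.5, Hmox1 41.8 to 172 and Vcam1 348 to 2445. Spic measured 19.0 to 40.4 and Mrc1 14.4 to 63.5. The list summed to 646 to 2042 and 1180 to 2690, and Vcam1 was the largest part of that sum in each array. Vcam1, at 784 ± 621 and 1716 ± 624 on average, was the marker of this list called higher, and Hmox1 the marker called lower. Of the T cell markers, Cd3d, Cd3e and Cd3g were below 20 in all 8 arrays, while Cd8a measured 32.1 to 537 and Cd28 7.55 to 400, and the list summed to 180 to 503 and 58.7 to 617 (58.7 to 190 without mouse _951). No marker named here was at 0, and Cd3d lay at exactly 1 in 2 arrays. Of 5 B cell markers and 4 erythroid markers, 0 passed in either direction, also at an unadjusted p under 0.05 (limma). The sums of the mast cell or basophil markers went the other way, 80.7 to 242 and 278 to 1266, with 1 of 4 genes higher, and the upper limit was 324 without mouse _951. The called gene was Mcpt8, while Ms4a2, at 66.9 and 247 on average, did not pass. Cpa3 and Fcer1a lay below the array median in all 8 arrays. Of 8 red pulp macrophage markers 1 was lower and 1 higher, 1 of 6 dendritic cell and 1 of 6 T cell markers were lower, 1 of 5 NK cell markers was higher, and 0 of 5 platelet markers passed (limma, 1 lower at an unadjusted p under 0.05). That NK cell marker was Klra8, at 7.71 ± 5.93 and 19.3 ± 9.77, below the array median in all 8 arrays. Over all named genes 13.8% were called lower and 8.36% higher. Single markers are named here after their values were seen.

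**Figure D4:**
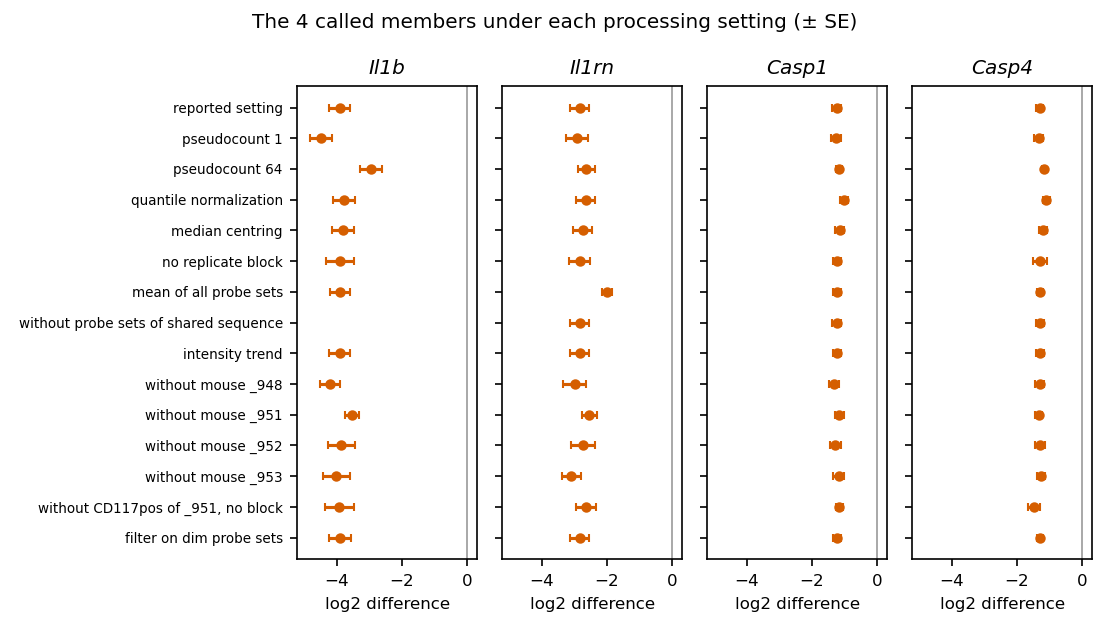
Difference of log2 values, CD117pos minus CD117neg, ± SE for Il1b, Il1rn, Casp1 and Casp4 under the reported setting and each of 14 alternatives (13 for Il1b, whose only probe set ends in _a_at and is left out with those of shared sequence). All values lie below 0, from -4.47 to -2.96 for Il1b, -3.09 to -1.996 for Il1rn, -1.32 to -1.02 for Casp1 and -1.47 to -1.10 for Casp4.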

How the data were processed

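The authors deposited linear intensities of 45101 probe sets for 8 one-colour Affymetrix arrays, after column purification of RNA, 2-cycle amplification and biotin labelling, per the labels' protocols. How these intensities were summarised and scaled, and a genome build, are not stated in the sources used here. No further scaling was applied. Each array held 841 to 898 values at exactly 1. Detection calls were not analysed here, and arrays have no read depth, so that precision rests on how many arrays there are.

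Names came from the platform annotation. After leaving out 64 control probe sets, 34945 had 1 symbol, 932 several and 9160 none listed. Where a gene had several probe sets, the one highest in mean log2(intensity + 16) over the 8 arrays stood for it. The difference between fractions was tested two-sided (limma 3.58.1, R 4.3.3: lmFit, eBayes) with the mouse as a block, with Benjamini-Hochberg adjustment over all 18193 genes, or all 45037 probe sets, at 0.05. Figures used matplotlib 3.10.9.

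The block follows from the design, in which each mouse gave both fractions. Deviations from the fraction means correlated across genes by 0.12 to 0.27 within mice and at most by 0.11 between mice. Replicates are separate animals. Whether their leukaemias arose from 1 transduction or several is not stated in the sources used here.

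Members, lists and motifs were chosen with earlier results of these data known. Named are Kit, all members, up to 3 called genes per list with the largest difference (or the gene with the largest difference where none passed) and the 5 genes most correlated with Il1b and Casp1. Other genes are marked as chosen after their values were seen. Alternatives covered the pseudocount (1, 64), quantile normalization, centring, a filter at a mean of 50, no block, the choice of probe set, an intensity trend and leaving out each mouse.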

Additional observations from a re-analysis of the deposited data

Results flagged for a closer look

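Of 99 sets of 4 values examined (each fraction and the within-mouse differences), 7 held 1 value far from the other three, by a criterion that chance meets in about 1 of 20 groups. None of these belongs to the 9 members. In the CD117pos array of mouse _951, Il1f5 measured 354 against 32.7 to 56.2 in the other CD117pos arrays, Myd88 measured 210 against 675 to 757, and Gbp2 measured 79.4 against 21.5 to 22.6. The log2 difference of Il18rap in mouse _951 was -3.18, with -1.51 to -1.23 elsewhere. That of Myd88 in the same mouse was -3.33, with -1.37 to -1.06 elsewhere. Elane measured 1620 in the CD117neg array of mouse _951 against 733 to 872. In mouse _953 the difference of Ctsc was -2.28 against -1.77 to -1.69. Of these 7 values, 6 come from mouse _951.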

How the results depend on the processing

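The 4 falls among the members, and 5 among their probe sets, stood under every alternative that gave a value, with adjusted p up to 0.0184 for Il1b, 0.0239 for Il1rn, 0.0296 for Casp1 and 0.0191 for Casp4. Leaving out probe sets of shared sequence, here all names ending in _a_at, _s_at or _x_at, left 3 falls. This step removes the only Il1b probe set, which ends in _a_at. Whether that probe set matches other genes was not examined. Leaving out the replicate block gave 4 falls and 0 rises and changed no member's call. Among the members, signs turned only for differences that did not pass: Nlrp3 became 0.030 after median centring and 0.027 with the block and the stand-apart CD117pos array left out, ranged from -0.20 to 0.11 with 1 mouse left out (0.11 without _951), also among all probe sets, and Pycard became 0.080 after quantile normalization. Over all named genes, 997 rose with a pseudocount of 1 and 2437 after quantile normalization, against 1521. Leaving out 1 mouse gave 440 to 2130 rises and 1219 to 2985 falls over all genes and 2 to 7 rises and 23 to 37 falls among pathway genes. With the block and that array (mouse _951) left out, 5 pathway genes rose. The replicate block left out gave 1525 rises and 2540 falls over all genes. Scaling moved the median difference of all genes from -0.01 to 0.06 (quantile) or 0.08 (centring). Low signal limits Il1a, Nlrp3 and 3 other member probe sets, which lay below the array median in at least 7 of 8 arrays.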
